A study of Mus musculus with 21 samples.

Results

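In the mouse ventricle at E12.5 (mid-gestation, in days after conception), 18647 genomic regions carried a peak of cardiomyocyte GATA4 in at least 2 of 3 libraries, out of 34333 regions with a peak in any of them. Each region was given to the gene with the nearest transcription start, if that start lay within 50 kb of the region's centre. This placed 11818 regions at 8088 of 24088 genes and left 6829 regions farther from any start. By number of regions, 16000 genes had 0, 5578 had 1, 1686 had 2 and 824 had 3 or more. A region centred within 1 kb of the start was called a promoter region (3194 regions) and any other a distal region (8624). The RNA level of these genes in cardiomyocytes (CM) was not used to choose the regions or the classes.

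GATA4 is a zinc-finger transcription factor that recognises DNA with the core letters GATA and is needed for the growth and differentiation of the heart. In cardiomyocytes it acts together with partners such as NKX2-5, TBX5, MEF2 factors and the cofactor FOG2 (encoded by Zfpm2), and textbook targets include natriuretic peptide and contractile genes. A factor bound near a start or at a distant enhancer need not change the RNA of the nearest gene, and the RNA level of a gene also depends on many other factors and on the stability of its RNA.

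GATA4 carried a tag that was biotinylated where Tnnt2-Cre, a Cre driven by the cardiac troponin T promoter, was active, and was recovered on streptavidin from chromatin of ventricles of 15 to 20 pooled hearts per library (bioChIP). There were 3 such libraries, and 3 more with Tie2-Cre, which is active in endothelium and endocardium and also in blood cells. RNA came from cells labelled cardiomyocytes at E12.5 (3 libraries) and from endothelial cells (EC) of the ventricular apex sorted by a Rosa26fsTRAP reporter that Tie2Cre had activated (2 libraries, 60000 cells each). No mutant enters the comparison, other alleles of the embryos are not given in the sources used here, and neither is the way the cardiomyocytes were isolated. Separate litters for the replicates are not stated, and p-values therefore measure the spread between these libraries, which may be technical.

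The GATA4 libraries differed in list length, with 22807, 3596 and 30440 peaks in replicates 1 to 3. Replicate 2 lacked a peak at 81.0% of the reproducible regions, so most of them rest on replicates 1 and 3. Leaving out replicate 2 gave 18553 regions, whereas leaving out replicate 1 or 3 gave 3522 and 3450. The RNA libraries held 42948614 to 48393473 counts in CM and 21682362 to 27660790 in EC. In CM, 10 cardiomyocyte markers summed to between 83397 and 91928 CPM (a gene's reads scaled by the total count of its library), against 513 to 533 CPM in EC. The CM libraries also held 8 endothelial markers at 612 to 713 CPM in sum (EC 4975 to 5035), 7 fibroblast, epicardial and mural markers at 326 to 330 CPM (EC 712 to 736; of these, Tbx18, Wt1 and Upk3b were higher in each CM library than in EC, and Col1a1, Pdgfra, Pdgfrb and Tcf21 lower), and 6 blood and macrophage markers at 1371 to 3200 CPM (EC 26.0 to 30.7). In that last list the embryonic globin Hbb-y made up most of the sum and the leukocyte marker Ptprc was below 1 CPM in every CM library. In such bulk libraries fewer cells of a type and less RNA per cell cannot be told apart, and the part of these other cells in the values below was not tested.

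The promoters of 5 genes with a promoter region show how varied the bound sequence was. Each line gives the 250 bases before the annotated start, 5′ to 3′ on the gene's strand (RefSeq, GRCm38.p6, the same build as mm10), with each GATAA or GATAG that follows A or T (the GATA hexamers) in capitals, also where the other strand carries it (then read as its reverse complement).
Nppb: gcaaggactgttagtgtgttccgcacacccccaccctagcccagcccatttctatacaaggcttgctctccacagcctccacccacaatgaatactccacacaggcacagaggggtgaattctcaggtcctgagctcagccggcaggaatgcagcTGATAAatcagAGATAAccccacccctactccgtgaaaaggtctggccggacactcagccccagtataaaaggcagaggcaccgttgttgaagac
Myoz2: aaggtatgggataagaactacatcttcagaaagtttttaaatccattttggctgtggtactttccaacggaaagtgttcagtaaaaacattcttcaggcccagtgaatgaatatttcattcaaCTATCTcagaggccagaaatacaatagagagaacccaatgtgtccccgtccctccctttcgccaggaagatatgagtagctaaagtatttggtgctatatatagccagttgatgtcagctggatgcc
Slc25a4: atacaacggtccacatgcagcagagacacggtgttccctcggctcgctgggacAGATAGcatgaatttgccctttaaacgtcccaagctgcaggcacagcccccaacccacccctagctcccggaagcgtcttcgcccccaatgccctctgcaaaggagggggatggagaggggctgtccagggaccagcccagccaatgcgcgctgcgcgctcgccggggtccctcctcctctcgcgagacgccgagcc
Rpl4: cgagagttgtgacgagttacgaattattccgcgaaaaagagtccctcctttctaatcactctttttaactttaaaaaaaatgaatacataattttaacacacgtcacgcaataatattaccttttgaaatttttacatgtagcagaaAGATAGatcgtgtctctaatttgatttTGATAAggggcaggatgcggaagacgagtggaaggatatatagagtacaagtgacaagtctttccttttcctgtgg
Galk2: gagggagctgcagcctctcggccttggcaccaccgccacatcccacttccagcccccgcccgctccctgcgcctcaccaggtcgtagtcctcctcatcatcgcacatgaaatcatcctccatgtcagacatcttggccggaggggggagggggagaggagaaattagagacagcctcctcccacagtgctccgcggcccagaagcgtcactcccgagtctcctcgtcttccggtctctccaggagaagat
The Nppb promoter (chr4:147985650-147985899) of the natriuretic peptide BNP gene holds 2 matches, at 95 and 84 bases before the start, and all of its 250 bases lie in a region present in all 3 libraries and in 0 Tie2-Cre libraries. Its RefSeq start lies 112 bp from the start in the count table. The Myoz2 promoter (chr3:123034988-123035237), of a Z-disc protein, holds 1 match, and 203 of its bases lie in a region without a Tie2-Cre peak. The promoter of Slc25a4 (chr8:46211063-46211312), the ADP/ATP carrier of the inner mitochondrial membrane, has 1 match within the 166 bases covered by a region. Rpl4 (chr9:64173137-64173386), a ribosomal protein gene, has 2 matches under a region that all 3 Tie2-Cre libraries also held. Galk2 (chr2:125858859-125859108), encoding a galactokinase-family enzyme, stands under the strongest promoter region by rank in the 3 lists, and these 250 bases hold 0 matches. The RNA of these genes ranged widely: mean CM CPM was 167 for Nppb, 154 for Myoz2, 1954 for Slc25a4, 1945 for Rpl4 and 47.5 for Galk2. Per kb of exon it was 1767 for Slc25a4, 1368 for Rpl4, 214 for Nppb, 134 for Myoz2 and 17.0 for Galk2.

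Over all 17391 genes whose RefSeq start could be matched (72.2% of the placed genes), the 300 bases from 250 before to 50 after the start held at least 1 of the 4 GATA hexamers, on either strand, in 25.9%. The share was 26.9% in 2398 genes with a promoter region, 19.3% in 3506 genes with distal regions only and 27.8% in 11487 genes with 0 regions. Promoters with a region are richer in CpG: the median ratio of observed to expected CpG was 0.79 with a promoter region and 0.47 with 0 regions. Among genes with at least 1 CPM in CM, whose CpG ratios were alike (0.80 and 0.78), the share with a GATA hexamer was 25.9% of 2184 promoters with a region and 16.0% of 5280 genes with 0 regions. In the same 2 groups CATTCC stood in 11.95% and 11.2%, CAGCTG in 13.7% and 14.4%, GGTGTG in 15.2% and 17.6%, and AAGTG in 43.4% and 43.3%, each on either strand. Whatever the RNA level, the GATA share was 36.5% of 895 promoters where the region's centre lay within 150 bp of the start, and 40.4% of 265 with a peak in all 3 libraries. In 3 equal bins of CpG ratio, from lowest to highest, it was 46.8%, 31.8% and 20.9% with a promoter region and 43.9%, 22.0% and 10.9% with 0 regions. A match is only a run of letters in this window.

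Reproducible regions had a median width of 395 bp. By their centre, 7.96% lay in exons, 45.6% in introns and 46.5% between genes, and the distal regions placed at a gene lay a median of 17457 bp from its start. Promoter regions were shared with the other lineage more often than distal ones: 52.8% of promoter regions and 32.1% of distal regions were found in 2 or 3 of the Tie2-Cre lists, and 20.5% and 53.1% in 0 of them. Distal regions were more often present in all 3 Tnnt2-Cre libraries (18.8% against 11.3%). The authors' median fold over background was 5.04 for promoter and 5.36 for distal regions in replicate 1, and 5.44 and 5.94 in replicate 3. Of the 5 strongest regions by rank in all 3 lists, 4 were farther than 50 kb from any start. They lay at chr6:103648928-103649431 in an intron of Chl1, at chr12:3109810-3110242, chr6:3201310-3201719 and chr3:5860446-5860914 between genes, and at chr9:35305078-35305683, whose nearest gene 4933422A05Rik had 0.13 CPM. These 5 regions had a fold of 23.6 to 33.5 in the Tnnt2-Cre libraries and a peak in all 3 Tie2-Cre libraries. Regions were not screened for repeated sequence or for high signal whatever the factor. Whether these 5 peaks mark GATA4 binding was therefore not tested.

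The RNA level rose from genes with 0 regions to genes with 3 or more, and the step from 0 to 1 region was the largest. Among the 20293 protein-coding genes with a placed start, the median level in CM replicates 1, 2 and 3 was 0.302, 0.309 and 0.295 CPM per kb of exon with 0 regions (13359 genes), and 5.78, 5.84 and 5.80 with 1 region (4807 genes). With 2 regions (1441 genes) it was 7.25, 7.12 and 7.04, and with 3 or more (686 genes) 10.1, 10.4 and 10.3 CPM per kb. No CM library overlapped between classes. The spread among genes within a class was far wider than that between libraries: the middle 50% of genes with 3 or more regions ran from 3.11 to 29.3 CPM per kb, and with 0 regions from 0.0028 to 7.43. Over all 24088 genes, the difference between genes with 3 or more and genes with 0 regions was 4.55 on the log2(CPM + 1) scale, and 4.49, 4.57 and 4.63 in the 3 libraries. Genes are not replicates of each other, so no test was run over genes.

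EC RNA showed the first step as well. The EC medians were 0.338 and 0.326 CPM per kb with 0 regions, 6.54 and 6.49 with 1, 7.27 and 7.26 with 2, and 7.85 and 7.70 with 3 or more. On the log2(CPM per kb + 1) scale the step from 0 to 1 region was 2.39 ± 0.01 in CM (SD, n = 3) and 2.50 ± 0.00 in EC (SD, n = 2). From 1 to 3 or more regions the median rose by 0.73 ± 0.02 in CM and by 0.22 ± 0.01 in EC. The libraries did not overlap in this second step, with 0.70 to 0.74 in CM and 0.21 to 0.23 in EC. An exact two-sided permutation test of 3 against 2 libraries gave p = 0.2 for either step and for the promoter difference below (Benjamini-Hochberg over these 3, 0.2), which is the smallest p it can give, so the design cannot reach 0.05. The box plot of levels by number of regions shows EC at or slightly above CM up to 2 regions and CM above EC at 3 or more.

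**Figure D1:**
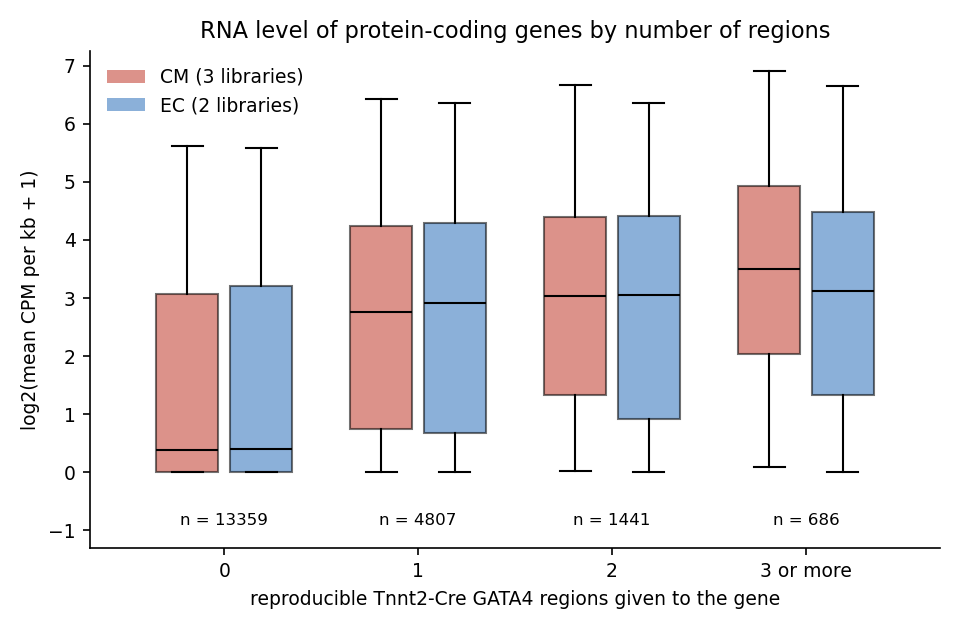
RNA level of protein-coding genes, as log2(mean CPM per kb + 1) on the vertical axis, by the number of reproducible Tnnt2-Cre GATA4 regions given to the gene, in CM (red, mean of 3 libraries) and EC (blue, mean of 2). Boxes span the middle 50% of genes with the median as a line and whiskers reach the 5th and 95th percentiles; the boxes rise most from 0 to 1 region in either cell type, and with 3 or more regions the CM median (10.3 CPM per kb) stands above that of EC (7.74).

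The classes differed in the share of genes with detectable RNA. At least 1 CPM in CM was reached by 48.9% of protein-coding genes with 0 regions, 78.1% with 1, 84.1% with 2 and 89.9% with 3 or more. Among the genes that reached it, the CM median was 7.71 CPM per kb with 0 regions, 9.99 with 1, 9.96 with 2 and 12.8 with 3 or more. In the same genes the EC median was 8.51, 10.5, 9.81 and 9.14 CPM per kb, with no rise beyond 1 region on this scale, while in CPM, without regard to length, it rose from 23.9 to 32.4, 36.5 and 38.2. With at least 1 CPM asked for in EC as well, the CM medians were 8.56, 10.6, 10.97 and 13.3 CPM per kb and the EC medians 9.49, 11.3, 10.8 and 9.76. Over all genes with at least 1 CPM, the difference between 3 or more and 0 regions was 1.28 on the log2(CPM + 1) scale. Genes with more regions also stood in wider stretches without another start. The stretch in which a region could be given to the gene had a median of 34.9 kb with 0 regions and 82.3 kb with 3 or more. In the bin of genes with the widest stretches, of 3 bins of equal size, the CM median was 0.16, 4.29, 7.40 and 10.5 CPM per kb from 0 to 3 or more regions. Within the narrowest bin it was 0.56, 7.70, 7.57 and 17.4, with 15 genes in the last class.

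Genes with a promoter region had higher RNA than genes with distal regions only. Their median was 10.3, 10.5 and 10.4 CPM per kb in the CM replicates (2886 protein-coding genes), against 3.73, 3.85 and 3.94 with distal regions only (4048 genes). EC gave nearly the same pair, 10.2 and 10.1 against 4.13 and 4.07 CPM per kb. The difference on the log2(CPM per kb + 1) scale was 1.24 ± 0.03 in CM (SD, n = 3) and 1.13 ± 0.00 in EC (SD, n = 2). It narrowed as regions were added: in CM it was 1.54 ± 0.02 at 1 region, 0.88 ± 0.01 at 2 and 0.43 ± 0.02 at 3 or more. At 3 or more distal regions and no promoter region (386 genes) CM stood at 8.67, 8.88 and 9.27 CPM per kb and EC at 7.02 and 6.95. At 1 distal region (2813 genes) CM stood below EC, at 2.80 to 2.86 against 3.49 and 3.50 CPM per kb. Over all genes the difference between promoter and distal only was 2.23 on the log2(CPM + 1) scale, and 0.20 among genes with at least 1 CPM in CM. Less than 1 CPM was found for 6.62% of protein-coding genes with a promoter region, against 28.7% with distal regions only.

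**Figure D2:**
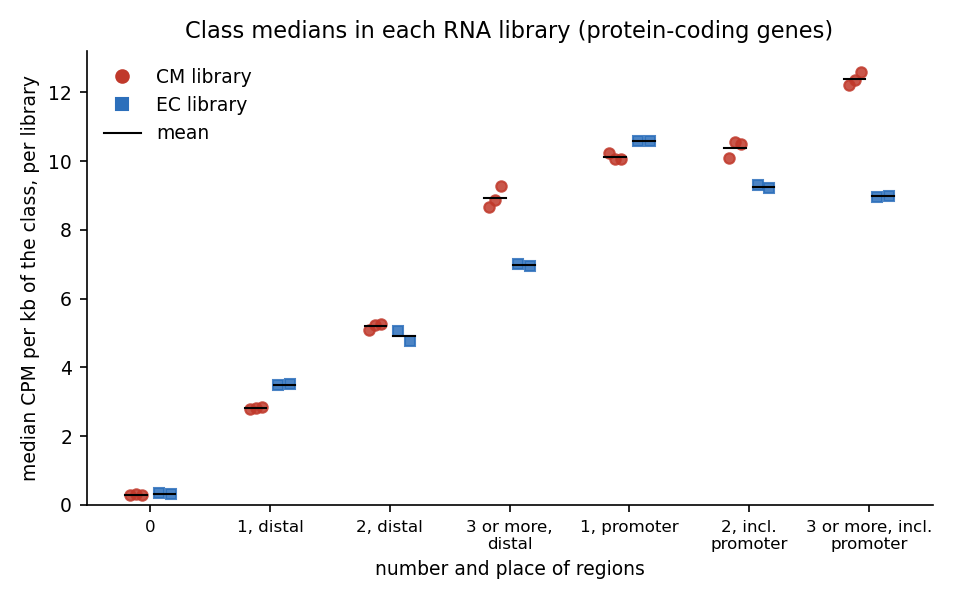
Median CPM per kb of protein-coding genes in each RNA library (vertical axis, linear) by number and place of regions; red circles are the 3 CM libraries, blue squares the 2 EC libraries and lines their means. CM libraries lie at or below EC with 1 region and above EC in both classes with 3 or more (8.67 to 9.27 against 6.95 and 7.02 for distal regions only).

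Read from the RNA side, the share of protein-coding genes with any region was 8.03% in the lowest of 10 equal bins of CM level and 51.1% in the highest. A promoter region was held by 0.54% of the lowest and 26.2% of the highest bin, and the share was flat over the top 3 bins (25.7%, 26.2% and 26.2%). A distal region was held by 7.54% and 33.0%. When the same genes were ranked by EC level, promoter regions followed the same course (0.94% to 26.0%). Genes tied at 0 fell into bins by their order in the count table. CM bin 1 and EC bins 1 and 2, counted from the lowest, held only such genes, and CM bin 2 and EC bin 3 held some. Any region was held by 13.5% and 10.0% of genes in EC bins 1 and 2. The share with 3 or more regions reached 7.44% in the highest CM bin and 5.22% in the highest EC bin. Across genes, Spearman's rho between the number of regions and CPM per kb was 0.33 in CM and 0.30 in EC (20293 protein-coding genes), and 0.10 and 0.04 over the 6934 with at least 1 region. Genes are not independent replicates and the libraries are shared, so these are descriptions.

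**Figure D3:**
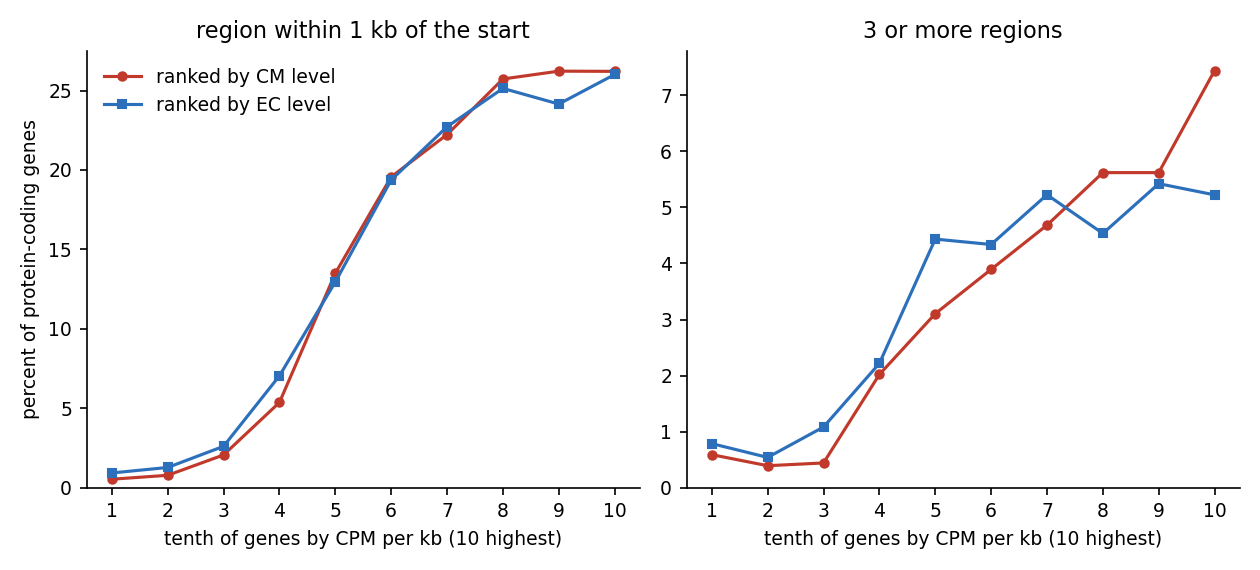
Percent of protein-coding genes with a promoter region (left) and with 3 or more regions (right) in 10 equal bins of RNA level in CPM per kb, ranked by CM (red circles) or EC (blue squares), from lowest to highest. The left curves nearly coincide; on the right the highest bin holds 7.44% by CM level and 5.22% by EC level.

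Beyond the first kb the level showed no steady course with distance. For genes with a single region, the CM median was 10.3 CPM per kb with the region within 1 kb, then 2.99 at 1 to 5 kb, 2.47 at 5 to 10 kb, 2.85 at 10 to 20 kb and 2.95 at 20 to 50 kb. On either side of the 1 kb limit, genes whose nearest region lay at 0.5 to 1 kb had 9.33 CPM per kb (476 genes) and at 1 to 1.5 kb 6.25 (217 genes). At the outer limit, genes with the nearest region at 40 to 50 kb had 2.69 CPM per kb, and genes with 0 regions but one at 50 to 60 kb had 1.87. A stronger peak did not go with more RNA. Of 4 equal bins by peak rank, the strongest single promoter regions stood at genes with a median of 8.87 CPM per kb and the weakest at 12.3, and for single distal regions the medians were 1.67 and 4.59. Genes with 1 region had 5.85 CPM per kb where 2 libraries held it and 5.54 where 3 did. Genes left at 0 regions because a peak was seen in 1 library only had 4.92 CPM per kb (3507 genes), and those with no peak in any had 0.05 (9852 genes).

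The ratio of CM to EC RNA is a measure within each gene, so gene length does not enter it. Each cell type has its own libraries, and the library names of CM and EC differ in form. A difference in library preparation therefore cannot be told apart from cell type in this ratio or in the calls below. In edgeR's quasi-likelihood test, 5972 of 14851 genes were higher in CM (40.2%) and 5575 higher in EC (37.5%). With 0 regions 3225 of 8390 tested genes (38.4%) were CM-higher, with 1 region 1719 of 4373 (39.3%), with 2 regions 647 of 1373 (47.1%) and with 3 or more 371 of 695 (53.4%). The shares at 0 and 1 region were close to the background and those at 2 and at 3 or more were above it. EC-higher genes made up 37.9%, 38.9%, 35.0% and 30.1%. The median log2 ratio of CM to EC was 0.02, 0.02, 0.23 and 0.41, beside 0.05 for all placed genes tested. With 5 or more regions, 42 of 67 genes (62.7%) were CM-higher and 14 (20.9%) EC-higher, and the median was 1.07. With a change of at least 2-fold added to the call, 252 genes with 3 or more regions (36.3%) were CM-higher, against a background of 22.6%, and 130 (18.7%) EC-higher, against 22.2%.

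In calls without a fold limit, promoter and distal regions did not separate as they did on level. With 1 region, 40.5% of genes were CM-higher where it was a promoter region and 38.3% where it was distal. With 3 or more regions it was 51.7% where a promoter region was among them and 54.8% where all were distal. With a 2-fold change added, more distal-only genes were CM-higher at 1 (22.9% against 18.2%), 2 (31.6% against 23.5%) and 3 or more regions (38.7% against 33.4%). The 2-fold EC-higher share was also larger for distal-only genes at 1 (26.1% against 16.7%) and 2 regions (21.9% against 16.2%). At 3 or more regions it was smaller (17.7% against 19.8%). Calls without a fold limit were also divided into 3 equal bins of mean level over the 5 libraries. In each bin the CM-higher share was higher at 2 regions than at 0 or 1, and higher again at 3 or more. In the lowest bin 33.9%, 37.5%, 46.4% and 53.0% of genes with 0, 1, 2 and 3 or more regions were CM-higher, in the middle bin 38.6%, 35.6%, 44.4% and 53.5%, and in the highest 44.7%, 43.9%, 49.6% and 53.5%. At 1 region the share was above that at 0 in the lowest bin and below it in the other two. In 3 equal bins of the stretch around the start, genes with 3 or more regions were CM-higher in 81.3% (of 16 genes), 56.1% and 51.8%, against 35.6%, 40.0% and 41.3% with 0 regions. Outside the 15 gene lists used below, 345 of 666 genes with 3 or more regions (51.8%) were CM-higher. Leaving out GATA4 replicate 1 or 3 left 16 and 15 tested genes with 3 or more regions, of which 62.5% and 60.0% were CM-higher.

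**Figure D4:**
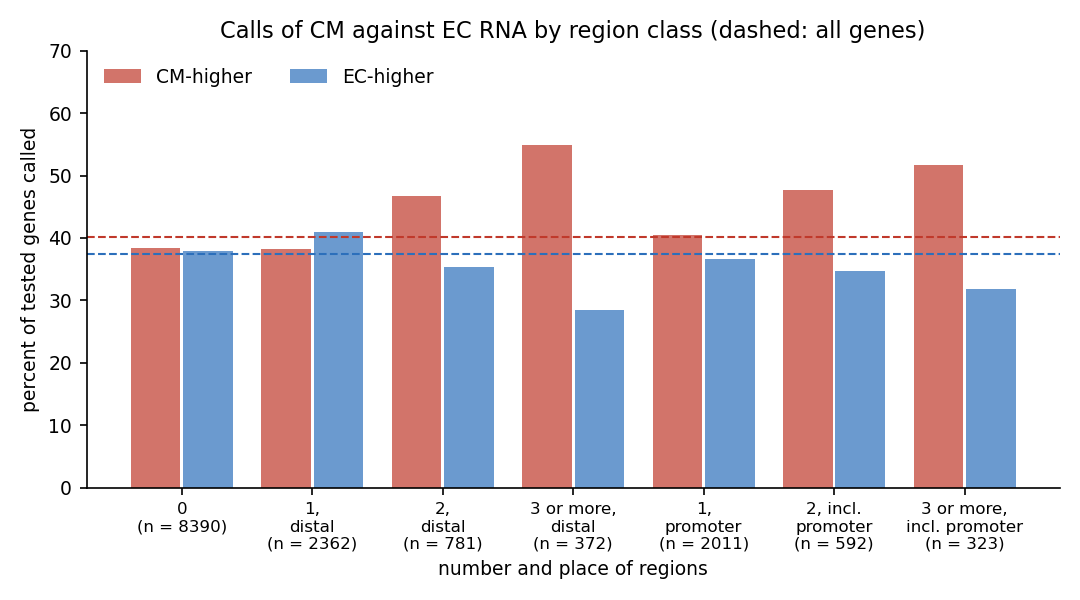
Percent of tested genes called higher in CM (red) or in EC (blue) by edgeR's quasi-likelihood test, by number and place of Tnnt2-Cre GATA4 regions; the dashed lines are the shares over all 14851 genes tested (40.2% and 37.5%). The red bars stand near their line at 0 and 1 region and above it at 2 and at 3 or more, for distal and for promoter classes.

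Genes with no Tie2-Cre peak at their regions were more often CM-higher than genes whose regions were shared with at least 2 Tie2-Cre libraries. Over all genes tested 40.2% were CM-higher and 37.5% EC-higher, and each shared class lay near or somewhat below that CM-higher share. Of genes with 1 region, 43.7% were CM-higher where no Tie2-Cre library had a peak there (1543 tested) and 35.5% where at least 2 did (1926 tested). At 2 regions the shares were 56.4% of 273 and 37.6% of 181, with median log2 ratios of 0.66 and 0.03. At 3 or more regions, 66 of 94 genes (70.2%) with no Tie2-Cre peak at any of them were CM-higher, with a median log2 ratio of 1.16. With at least 2 Tie2-Cre libraries at every region it was 9 of 23 (39.1%), with a median of -0.45. Without a Tie2-Cre peak, 34.3%, 26.4% and 18.1% of genes were EC-higher at 1, 2 and 3 or more regions. In the shared classes these shares were 42.3%, 42.0% and 52.2% (12 of 23 genes).

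The gene with most regions was Mir101c, a microRNA gene, with 18 between chr9:2999901 and chr9:3038329. At least 2 Tie2-Cre libraries also held 15 of them, and the gene had a mean of 0.0069 CPM in CM. This run of regions was not screened for repeated sequence either, and whether it marks GATA4 binding was not tested. Tbc1d7, a subunit of the TSC complex that restrains mTOR signalling, followed with 8 regions and had 6.72, 7.08 and 8.00 CPM in CM and 7.23 and 7.93 in EC. Its groups overlapped, and the test gave no call (log2 ratio -0.01 ± 0.15 SE, adjusted p = 0.94 in edgeR). Another 9 genes had 7 regions each; Pakap ranks last of these by the tie rule and its values are not described.

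Of the other 8, the test called 5 higher in CM and 2 higher in EC, while Lamb1 had no call. Ppargc1a, the coactivator PGC-1α of mitochondrial biogenesis, had 132, 144 and 187 CPM in CM and 9.80 and 9.18 in EC, the largest ratio among them (log2 4.07 ± 0.17 SE, adjusted p = 3.57e-09 in edgeR). Of its regions 5 lay in introns, from 407 to 36036 bp inside the gene, and 2 upstream, the farther at 45813 bp. Plcb4, a phospholipase C, had 86.8 to 95.3 CPM in CM and 15.8 and 17.8 in EC. Hk2, a hexokinase of muscle, had 126, 143 and 159 against 42.2 and 40.7, and no Tie2-Cre library had a peak at 6 of its 7 regions. Hmcn1, of the extracellular matrix, stood at 259 to 268 against 142 and 143 CPM. Tbx5, the T-box factor that partners GATA4, had 28.1, 33.8 and 37.0 CPM in CM against 16.8 and 14.2 in EC (log2 1.13 ± 0.14 SE), with 5 of its 7 regions in its introns and 2 upstream. Phldb2, which links microtubules to the cell cortex, was lower in CM (202, 202 and 229 against 349 and 370 CPM), and so was Zfpm1, encoding the GATA1 cofactor FOG1 (22.0, 23.4 and 23.2 against 133 and 117). Lamb1, a laminin chain, was level at 608 to 642 CPM in CM and 618 and 620 in EC.

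Gata4 itself had 4 regions, none within 1 kb: 1 lay in an intron 13928 bp inside the gene, at chr14:63231136-63231527, and 3 lay upstream, at 10970, 26457 and 38542 bp. Its RNA was 63.0, 75.3 and 85.4 CPM in CM and 258 and 248 in EC, so every CM library was below both EC libraries (log2 -1.72 ± 0.11 SE, adjusted p = 1.29e-07 in edgeR).

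Of 30 sarcomere genes, 22 had a region, 12 a promoter region and 8 at least 3 regions, beside 34.2% of all protein-coding genes with a region. All 30 were CM-higher. For this and the following lists, the shares over all genes tested were 40.2% CM-higher and 37.5% EC-higher. Of all 20293 protein-coding genes, 6934 had a region, 2886 a promoter region and 686 at least 3 regions. Csrp3, the muscle LIM protein of the Z-disc, had 6 regions and 929, 744 and 818 CPM in CM against 8.97 and 6.60 in EC. Ttn, encoding titin, the elastic filament of the sarcomere, had 4 regions and 26136, 26308 and 28847 CPM against 31.5 and 27.9, with no Tie2-Cre peak at any of the 4. Tpm1, a tropomyosin of the thin filament, had 4 distal regions, the nearest 24097 bp away, and 3593 to 4049 CPM against 430 and 416. The members with a region were not higher in CM level than those without: the medians were 801 and 1439 CPM. Those without include Myh6 and Actc1, with 7 and 4 regions within 50 kb of their starts, each nearer to another start.

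Of 29 genes for calcium handling and ion channels, 25 had a region, 7 had one within 1 kb, and 9 had at least 3. The test called 26 of 28 CM-higher and none EC-higher. Pln, encoding phospholamban, the inhibitor of the SERCA pump, had 2412, 1998 and 2350 CPM in CM against 6.47 and 5.49 in EC (log2 8.60 ± 0.15 SE, adjusted p = 1.67e-11 in edgeR). Its 3 regions lay 2124, 4682 and 12708 bp upstream, in introns of Cep85l. Ryr2, the calcium release channel of the sarcoplasmic reticulum, had 4 regions and 937 to 1051 CPM against 9.62 and 10.8. Kcne1, a potassium channel subunit, had 5 regions at a modest level of 16.9, 14.8 and 19.8 CPM, with EC at 0.11 and 0.23. Hrc and Casq1, calcium-binding proteins of the sarcoplasmic reticulum, had 0 regions and still stood at 160 to 191 and 89.0 to 108 CPM in CM, well above EC (2.46 and 3.09, and 7.01 and 5.63). For each of these genes 1 region lay within 50 kb of the start but was nearer to another start.

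Among 27 cardiomyocyte transcription factors, 22 had a region and 7 had at least 3. Of them 16 were CM-higher (59.3%) and 11 EC-higher (40.7%, near the 37.5% of all genes tested). Mef2a, a MADS-box factor, had 5 regions and a small excess in CM (284, 311 and 356 against 278 and 276 CPM; adjusted p = 0.041 in edgeR), which lost its call without CM replicate 2 or 3, without either EC replicate, and with a replicate block. Hey2 and Esrrg, a Notch effector and an orphan nuclear receptor, had 0 regions and 330 to 381 and 127 to 135 CPM in CM, against 54.1 and 48.0, and 9.29 and 9.50, in EC. For Hey2, 1 region lay within 50 kb of the start but was nearer to another start. Of 11 GATA family members and cofactors, 9 had a region and 6 a promoter region, while 2 were CM-higher and 8 EC-higher. Zfpm2, encoding FOG2, had 4 distal regions without a Tie2-Cre peak and was somewhat higher in CM, at 29.4, 31.7 and 35.7 against 25.3 and 20.6 CPM. Smarca4, the BRG1 ATPase of SWI/SNF remodellers, had 2 promoter regions and was EC-higher, at 348 to 358 against 605 and 609 CPM.

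Of 18 genes for natriuretic and other secreted factors, 10 had a region. Of 17 tested, 10 were CM-higher (58.8%) and 6 EC-higher (35.3%, near the 37.5% of all genes tested). Nppb had 185, 159 and 156 CPM in CM against 4.48 and 4.34 in EC, with its promoter region and a second 16281 bp upstream present in all 3 GATA4 libraries. Bmp10, a ligand that sustains trabecular growth, had 4 distal regions and 73.4, 72.8 and 57.6 CPM against 1.23 and 1.38. Igf2, an imprinted growth factor, and Angpt1, a ligand of the Tie2 receptor, had 0 regions, though 4 regions nearer to other starts lay within 50 kb of the start of Igf2. They moved apart: Igf2 was at 1065, 1201 and 1251 CPM in CM and 13628 and 13722 in EC, and Angpt1 at 217 to 282 against 21.0 and 26.2.

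The metabolic lists were nearly all CM-higher yet differed in coverage. Of 20 glycolysis genes 14 had a region (5 at the promoter) and 18 were CM-higher. Of 22 genes for fatty acid uptake and oxidation 12 had a region (6 at the promoter) and 20 were CM-higher. Of 21 oxidative phosphorylation genes 8 had a region (38.1%, near the 34.2% of all protein-coding genes), 7 of them at the promoter, none had 3 or more, and all 21 were CM-higher. Pfkp, a phosphofructokinase, had 3 regions and 504, 503 and 593 CPM against 18.2 and 16.4 in EC. Cd36, the fatty acid transporter, had 3 regions without a Tie2-Cre peak, the nearest centred 93 bp from the start, and 126, 116 and 131 CPM against 5.57 and 4.34. Fabp3, the fatty acid binding protein of heart, had 0 regions, and none within 50 kb of its start at all, with 239, 211 and 249 CPM in CM against 2.31 and 3.23. Atp5b, the catalytic beta subunit of ATP synthase, was likewise without a region at 2344 to 2373 CPM against 688 and 673.

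Of 30 ribosomal protein genes, 17 had a region, 16 of them at the promoter and none with 3 or more. The test called 13 CM-higher and 13 EC-higher (43.3% each), close to the 40.2% and 37.5% of all genes tested. Rpl4, whose region was centred 4 bp from the start, had 1917, 1981 and 1937 CPM in CM and 1723 and 1811 in EC, a small excess (adjusted p = 0.035 in edgeR) that lost its call without CM replicate 2 or without either EC replicate. Its counts also cover the small nucleolar RNA gene Snord16a on the same strand. Of 24 cell cycle genes 10 were CM-higher and 12 EC-higher, with a median log2 ratio of -0.19. A region was found at 7 of them, each a single one, among them the promoter regions of Top2a, a DNA topoisomerase (1297 to 1354 CPM in CM, 855 and 936 in EC), and Mki67, the proliferation marker (1136 to 1366 and 745 and 790).

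Lists of other cell types ranged from above to below the share of all protein-coding genes. Of 24 endothelial genes 10 had a region (2 at the promoter), none had 3 or more, and all 24 were EC-higher; Kdr, the VEGF receptor 2, had 2 distal regions at 130 to 148 CPM in CM and 900 and 899 in EC. Of 22 endocardial and cushion genes 11 had a region and 18 of 21 tested were EC-higher, beside 37.5% of all genes tested. Of 18 epicardial, fibroblast and mural genes 4 had one, of 21 blood and macrophage genes 2, and of 24 genes of other organs 3, none of these lists with a gene at 3 or more. Acta2, the smooth muscle actin that the embryonic myocardium also expresses, had 2 distal regions and 1154, 1250 and 1517 CPM in CM against 41.5 and 44.4 in EC. The lists were chosen with earlier results of these data known, so their order carries no test.

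**Figure D5:**
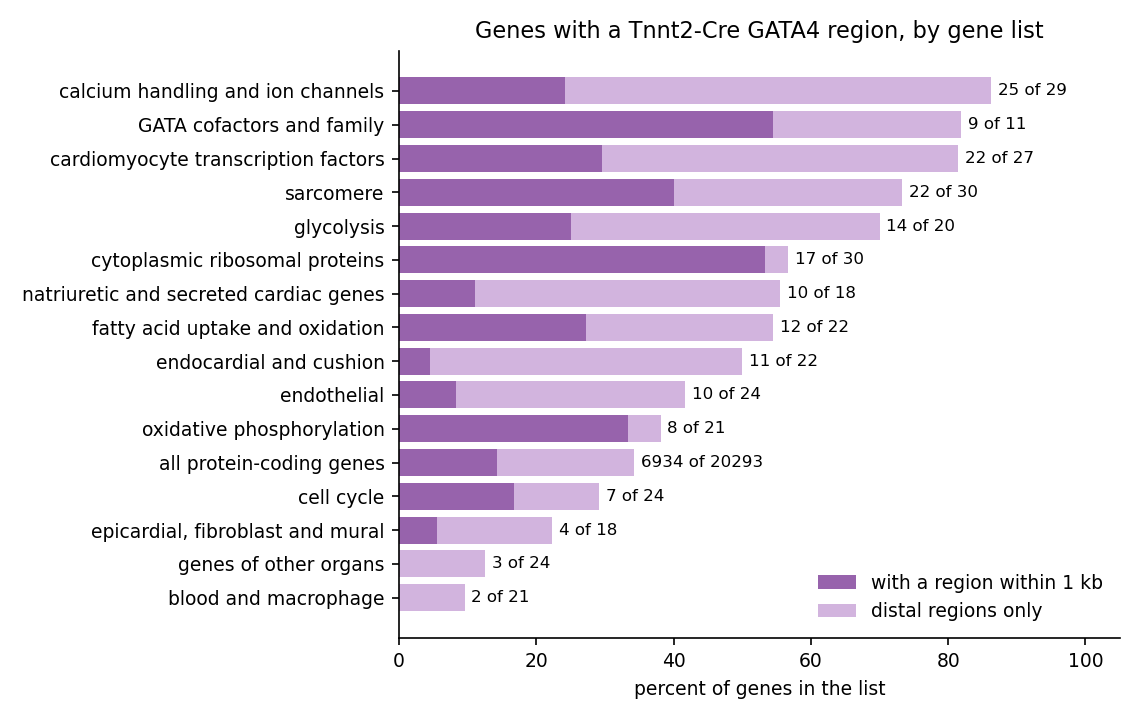
Percent of the genes of each list with a Tnnt2-Cre GATA4 region, divided into genes with a promoter region (dark) and with distal regions only (light); labels give the number with a region of the number in the list. Calcium handling and ion channel genes lead with 25 of 29, all protein-coding genes stand at 34.2%, and genes of other organs and of blood stand lowest.

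Number of regions and level went apart in both directions. Of the protein-coding genes with 0 regions, the highest per kb in CM were Actc1, the cardiac alpha-actin (5416, 6124 and 6460 CPM), Hbb-y, an embryonic globin (3003, 2230 and 1188), Myl3, a ventricular myosin light chain (3334, 2743 and 2890), Atp5k, an ATP synthase subunit (582 to 602), and Hist1h2bb, a histone gene whose near-identical copies can share reads (802 to 928). Some had regions nearby that went to another gene: 4 regions lay within 50 kb of the start of Actc1, 2 of Myl3 and 7 of Myh6, the alpha-myosin heavy chain gene (6639, 6951 and 7582 CPM), and each was nearer to another start, while Hbb-y and Atp5k had none in that range. In the other direction, 5 genes with 3 distal regions each (1700019O17Rik, 1700029F12Rik, 4932411E22Rik, Apobec4 and Cabp7) had 0 counts in the 3 CM libraries, which allows at most 0.022 CPM over the group.

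Among called genes with 3 or more regions and 20 CPM or more in each library of the group with the higher level, the largest ratios towards CM were those of 2900060B14Rik, Ttn, Pln, Myoz2 and Trim55. The noncoding 2900060B14Rik, with 6 regions, had 125, 151 and 127 CPM in CM and 0 counts in EC, so it was at least 2210-fold higher against a floor of 3 counts over the EC group. Trim55, a sarcomere-associated ubiquitin ligase, had 5 regions and 486, 476 and 545 CPM against 2.64 and 3.04. Myoz2 had 142, 152 and 169 CPM against 0.43 and 1.06. Towards EC the largest were Rn45s, Cbfa2t3, Sp2, Unc5c and Card10, with 3 regions each. Rn45s, the ribosomal RNA precursor, is a multicopy gene whose reads and peaks cannot be placed with certainty; it had 1180 to 1997 CPM in CM and 57724 and 53447 in EC, and at least 2 Tie2-Cre libraries held its 3 regions. Cbfa2t3, a corepressor of blood and endothelial cells, had 2.40, 3.63 and 2.81 CPM in CM against 75.3 and 81.6, and likewise its 3 regions were shared with at least 2 Tie2-Cre libraries. Unc5c, a netrin receptor, had 7.08 to 8.04 CPM against 84.8 and 97.7. Eef1a1, the translation elongation factor, had the highest level per kb among protein-coding genes with at least 3 regions, at 3513 to 3974 CPM in CM and 3379 and 3434 in EC, with 5 regions and no call (adjusted p = 0.062 in edgeR); it was called with DESeq2, without the filter on low counts, with a replicate block and without CM replicate 3.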

How the data were processed

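The deposited RNA table holds read counts for 24421 genes, made with featureCounts 1.6.3, stranded, per the file headers; mm10 is the build in the submitters' processing notes. Peaks were deposited as 1 list per GATA4 library with names that carry MACS2; each has a fold over background (a ratio) and values of −log10 p and of −log10 q, all as deposited. The sources used here do not name a control library. The submitters' processing notes also name MACS2 2.2.4, deepTools 3.3.1, STAR 2.7.3a, Bowtie2 2.2.9 and, as a further aligner, Bowtie 1.1.1.

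Peaks of the 3 Tnnt2-Cre libraries, without mitochondrial ones, were joined into 1 region on any overlap (1 bp or more). No other peaks were removed, also none in repeated sequence. A gene's start is its outermost exon end in the count table; 144 genes on several chromosomes or strands and 189 with copies far apart were left out. CPM uses each library's total count, and CPM per kb the exon length. Protein-coding follows RefSeq, which matched 99.5% of genes. Counts of the 5 RNA libraries went into edgeR 4.0.16 under R 4.3.3: low genes were dropped by filterByExpr, libraries scaled by TMM, and genes called by the quasi-likelihood test at a Benjamini-Hochberg adjusted p of 0.05; DESeq2 1.42.0 was the other tool. The SE of a log2 ratio was taken as its size over the square root of the F statistic. On counts simulated for 14851 genes with 200 changed, the test found 61.7% of 1.5-fold, 78.1% of 2-fold and 94.9% of 4-fold changes. The data gave far more calls (5972 CM-higher and 5575 EC-higher), so these shares need not hold for them. The region code was tested on planted peaks. Replicates differed beyond sampling noise (chi-square over its degrees of freedom was 7.89 in EC and 14.0 to 35.4 in CM). Peaks were handled in Python 3.11.15 with pandas 2.3.3 and numpy 2.4.6. The 10 ATAC samples were not used here.

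The region rule, gene lists and named genes were chosen with earlier results of these data known. Named were Gata4, the 10 genes with most regions, the 5 highest and 5 lowest protein-coding genes with at least 3 regions, the 5 highest with 0 regions, up to 3 members of each list with most regions and up to 2 with 0 regions, the 5 strongest regions and promoter regions, and the 5 largest changes each way. Pakap and the marker Ptprc fall outside this rule and were named after their values were seen.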

Additional observations from a re-analysis of the deposited data

How the results depend on the processing

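Neither level difference changed sign under the alternatives run. Shares and counts have no sign, so they can only move. Of the regions, 3443 had a peak in 3 of 3 libraries, 3262 were reproducible with lists of equal length, and leaving out 1 GATA4 library gave 3450 to 18553. The level difference between 3 or more and 0 regions (4.55, log2) was 4.79 with 3 of 3 libraries, 3.94 with equal lists, 4.74 within 20 kb, 3.71 with every start in range, 1.28 among genes with at least 1 CPM, 2.91 per kb, 6.39 with a pseudocount of 0.1, and 4.35 to 4.79 without 1 library. The promoter difference (2.23) was 1.29 with 3 of 3 libraries, 2.14 with a stricter q, 1.56 with equal lists, 2.11 where a library's peaks had to cover 0.5 of the region, 2.13 within 20 kb, 2.38 within 100 kb, 2.70 with every start, 1.23 in protein-coding genes, 0.20 among genes with at least 1 CPM, 1.90 per kb, 2.42 with a pseudocount of 0.1, 1.87 with promoters of 0.5 kb, and 1.16 to 2.27 without 1 library. The CM-higher share at 3 or more regions (53.4%) was 60.0% with 3 of 3 libraries (15 genes), 45.0% with equal lists (20 genes) and 44.1% with every start. In each of these settings 40.2% of all genes tested were CM-higher. Without 1 library the share at 3 or more regions was 50.9% to 62.5%. It was 49.4% with DESeq2 (34.1% of all genes that it tested), 49.1% without the filter (32.1% of all) and 32.8% in a test against 2-fold (18.0% of all). That test called 2675 genes CM-higher and 2569 EC-higher. Without 1 RNA library the counts were 5438 to 5904 and 5163 to 5437. The cause of these shifts was not tested. GATA4 replicate 2, with its short list, limits what 3 of 3 libraries can show.

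Replicate numbers 1 and 2 occur in CM and EC. The deviations of same-numbered libraries correlated at -0.02 (number 1) and -0.0088 (number 2), so no shared deviation by number was seen. With 2 EC libraries the EC deviations mirror each other, so this cannot show whether the samples were paired. With a replicate block 5729 genes were CM-higher and 5248 EC-higher, and the share at 3 or more regions was 51.8%, beside 38.6% of all genes tested. Among the named genes, the block ended the call of Mef2a and gave one to Eef1a1.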
